A study of Mus musculus with 28 samples.

Results

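The comparison described here set 5 AB1-HA tumors from mice given 5-fluorouracil together with immune checkpoint blockade (5-FU+ICB) against 4 AB1-HA tumors from mice given the vehicle, phosphate-buffered saline (PBS). These are 9 of the 28 tumors of the series, chosen by their labelled treatment, and every gene that passed a filter on low counts was examined. AB1-HA is a murine mesothelioma cell line, a derivative of AB1 that carries the influenza hemagglutinin gene. It was grown under the skin of the flank of BALB/c.AusBP mice, which per the study's methods were female and 8 to 10 weeks old. Mice of the 5-FU+ICB group received 75 mg/kg 5-FU into the tail vein, 100 µg anti-CTLA-4 and 100 µg anti-PD-L1, followed by 2 further doses of 100 µg anti-PD-L1. The ICB group (n = 5) received the same antibodies alone and the 5-FU group (n = 5) the same 5-FU alone. All tumors were taken whole 7 days after treatment began, and each came from a different mouse. RNA of a whole subcutaneous tumor mixes cancer cells, leukocytes, stroma and any adjacent tissue, so that more cells of a type and more RNA per cell cannot be told apart.

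Immune checkpoints are brakes on T cells. CTLA-4 on T cells competes for costimulatory ligands, and PD-1 on T cells is engaged by PD-L1, which many cells display after exposure to interferon gamma. Antibodies to CTLA-4 and PD-L1 release both brakes, and interferon gamma secreted by T and NK cells then acts through JAK kinases on genes of antigen presentation, chemokines and guanylate-binding proteins. 5-FU is a pyrimidine analog that blocks thymidylate synthase, is built into RNA and DNA, and is broken down by dihydropyrimidine dehydrogenase.

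The deposited values were estimated counts per gene, totalling 25636627 to 32840507 per tumor, and the total did not differ detectably between the groups (exact permutation test of the means, two-sided p = 0.746, n = 5 and 4). Of 55341 genes listed, 17916 were tested. A differentially expressed gene (DEG) had an adjusted p below 0.05 in edgeR's quasi-likelihood test and a log2 fold change beyond 0.5 in either direction. By that rule 40.7% of tested genes were DEGs, made up of 21.9% that were higher and 18.7% that were lower in 5-FU+ICB, and the median log2 fold change over all tested genes was -0.04. The 2 groups did not overlap in 24.4% of tested genes. Shares of this size are the background for each gene group below. Large changes were mostly upward, with 1805 DEGs above 2 and 141 below -2 on the log2 scale. Fold changes are log2 (5-FU+ICB over PBS) with their standard error (SE), and levels are CPM, counts scaled to a common library size.

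Several libraries stood apart, and results that rest on them are given with and without them. In 5-FU+ICB tumor 5, mitochondrially encoded transcripts took 16.1% of counts against 2.33 to 4.94% in the other 4 treated tumors and 1.53 to 2.37% in PBS tumors. The same tumor held lymph node and B cell transcripts, epithelial Krt19 at 49.4 CPM against 0.0885 to 1.92 CPM in the other treated tumors, and the muscle actin Acta1 at 2225 CPM. Krt19 was called higher at 5.74 on the log2 scale with all tumors but not without tumor 5 (1.95, adjusted p = 0.0576) or with a replicate block (3.01, adjusted p = 0.0894). Its level of the mesothelial Msln was 0.505 CPM, against 33.7 to 159 CPM in the other treated tumors. Without it, 18.8% of 17806 tested genes were higher and 18.0% lower, and 3208 of the 3930 higher and 2845 of the 3353 lower DEGs were called again in the same direction. 5-FU+ICB tumor 2 was the opposite extreme for leukocytes, as its pan-leukocyte Ptprc stood at 100 CPM, within the 68.3 to 109 CPM of PBS tumors, while the other 4 treated tumors reached 339 to 729 CPM. In PBS tumor 1 the ribosomal RNA gene CT010467.1 (chr17:39846353-39848827, GRCm38) took 5.95% of counts, against 0.046 to 0.198% in the other PBS tumors.

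Of the 12 mesothelial and tumor cell markers tested, 5 rose and 1, Msln, fell, with a median of 0.83. Without treated tumor 5, 4 rose and the median was 0.53. Without treated tumor 2, 2 fell, and without both tumors 3 fell. The mean log2 CPM of the list was 3.32 ± 0.11 (SD, n = 4) in PBS and 3.75 ± 0.34 (SD, n = 5) in 5-FU+ICB, above the PBS range in 4 of the 5 treated tumors. Mesothelin (Msln) was at 331, 373, 264 and 257 CPM in the PBS tumors and the mesenchymal filament Vim at 3820 to 4883 CPM. Krt19 (0.126 to 0.329 CPM), Wt1 (0 to 0.165 CPM) and Calb2 (0.0315 to 0.288 CPM), which also mark mesothelioma, were at or near 0 in PBS tumors. Msln was at 33.7, 159, 67.2, 55.3 and 0.505 CPM after 5-FU+ICB, below every PBS tumor, with a log2 fold change of -2.28 (SE 0.77, adjusted p = 0.0238). The value was -1.96 without tumor 5, and adjusted p was 0.0565 without treated tumor 1 and 0.0528 without PBS tumor 2. Vim did not pass the test (-0.24, adjusted p = 0.305).

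**Figure D1:**
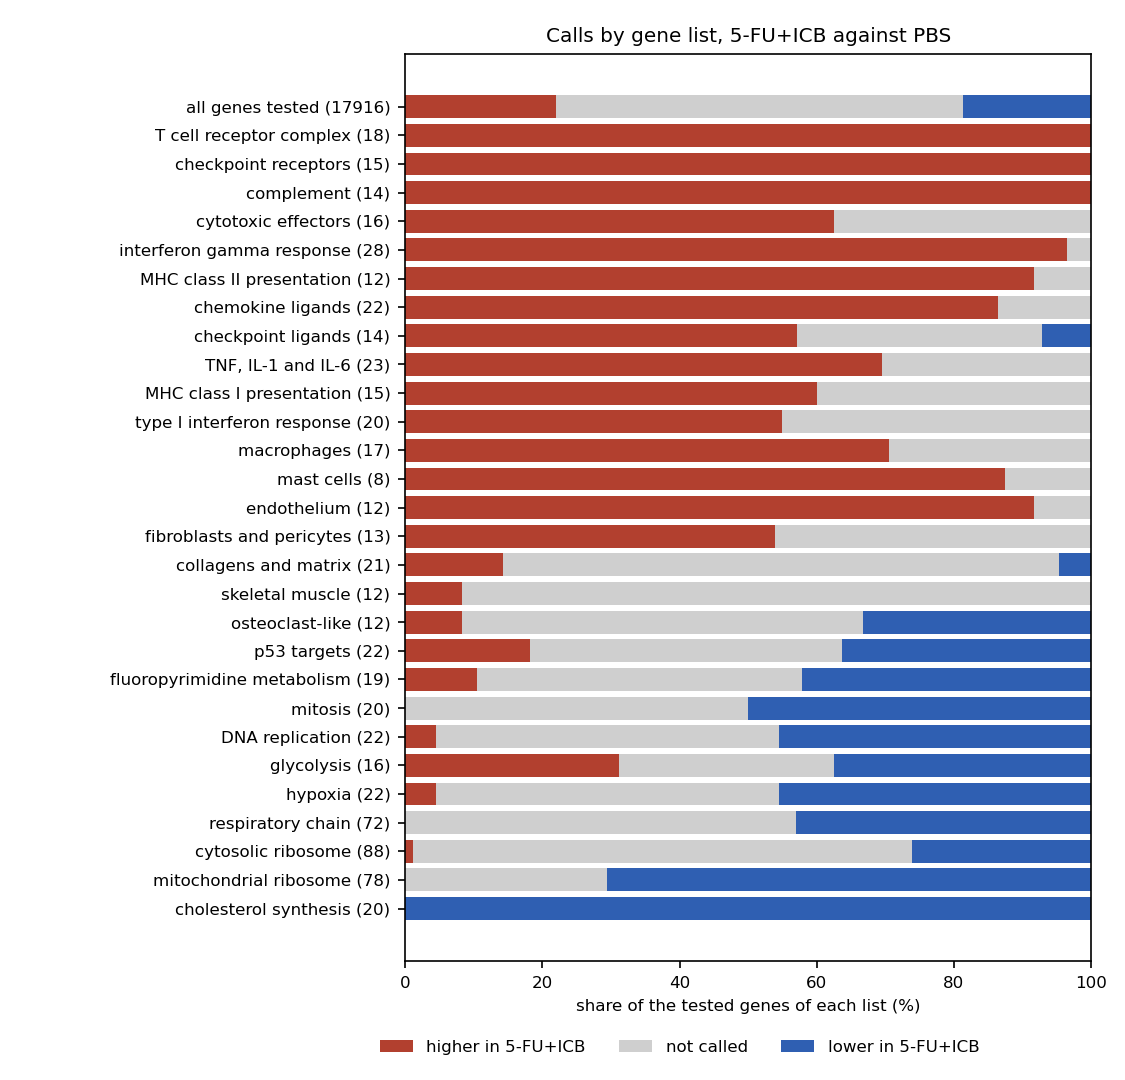
Share of the tested genes of 28 gene lists that were higher (red), lower (blue) or not called (grey) in 5-FU+ICB against PBS tumors, with the number of tested genes in parentheses and all 17916 tested genes in the top row. The T cell receptor complex, checkpoint receptor and complement lists are wholly red and the cholesterol synthesis list is wholly blue, against 21.9% and 18.7% over all genes.

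Interferon gamma response genes rose, and the mean of the list was similar in the 5 treated tumors. Of the 28 genes of this list, 27 rose and none fell, with a median log2 fold change of 2.34, and 25 of the 28 did not overlap between the groups. The exception was Ifngr2, a subunit of the interferon gamma receptor, at -0.05 (SE 0.24, adjusted p = 0.881). The mean log2 CPM of the list was 5.65 ± 0.12 (SD, n = 4) in PBS and 8.01 ± 0.18 (SD, n = 5) in 5-FU+ICB. The same count, 27 of 28, came from every fit that left out 1 of the 9 tumors.

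Interferon gamma itself, Ifng (chr10:118441046-118445892), was at 0.205, 0.423, 0.362 and 0.347 CPM in PBS tumors. After 5-FU+ICB it was at 11.9, 4.13, 8.76, 8.15 and 12.5 CPM. All 5 treated tumors were above all controls, and the log2 fold change was 4.74 (SE 0.55, adjusted p = 4.71e-05). Of the signaling and transcription factor genes, Jak1 (0.70, adjusted p = 0.00283), Jak2 (1.40, adjusted p = 0.000328) and Irf1 (1.51, adjusted p = 0.000465) rose.

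The 5 higher DEGs with the smallest p were all guanylate-binding protein or related interferon-inducible GTPase genes: Gbp9, Gbp10, Gbp11, Gm43302 and Gm12185, each with an adjusted p of 1.15e-05. Guanylate-binding proteins are GTPases that act in cell-autonomous defence against pathogens. Gbp10 was at 8.38, 8.18, 6.46 and 8.22 CPM in PBS and at 94.3, 68.6, 93, 103 and 97.4 CPM in 5-FU+ICB, a log2 fold change of 3.55 (SE 0.33). Gbp5 was at 15, 12.5, 20.3 and 21.2 CPM in PBS and at 257, 244, 276, 289 and 219 CPM in 5-FU+ICB, a log2 fold change of 3.90 (SE 0.37, adjusted p = 1.15e-05). Tumor 2, low in leukocyte transcripts, was within the treated range for Gbp5 and lowest for Gbp10, but above every control for both. Gbp2, at 112 to 155 CPM in PBS, reached 1084 CPM in tumor 2 and was lowest among treated tumors, at 412 CPM, in tumor 5. The Gbp genes have near-identical relatives, among which the counting could divide reads, so single members are less certain than the group.

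The promoters of these genes were searched because members of the list moved together. Windows of 300 bases, from 250 before to 50 after the annotated start, came from RefSeq on GRCm38.p6, where 19 of the 28 genes had 22 windows. An interferon-stimulated response element, written as GAAA, any 2 bases and GAAA, was present on either strand in 12 of the 22 windows (54.5%), against 3.44% of all 32851 windows. A gamma-activated site, written TTCNNNGAA, was present in 8 of 22 (36.4%), against 8.30% of all windows. For the 15 type I interferon genes with a window, the first motif was in 9 of 16 windows (56.2%) and the second in 3 (18.8%). For the 14 genes of class I antigen presentation with a window, the first was in 3 of 16 windows (18.8%). The second was in 1 of these 16 (6.25%), below the share of all windows. Both interferon lists were drawn up from known interferon targets, so their high shares are no test of the motifs. A match is a run of letters and no evidence of binding, and genes of one family share sequence. Gbp2 and Gbp5 are shown as members with either motif, Irf1 for its single gamma-activated site, and Samhd1, described below, for one far from the start, and matches are in capitals.
Gbp2, chr3:142620413-142620712, plus strand: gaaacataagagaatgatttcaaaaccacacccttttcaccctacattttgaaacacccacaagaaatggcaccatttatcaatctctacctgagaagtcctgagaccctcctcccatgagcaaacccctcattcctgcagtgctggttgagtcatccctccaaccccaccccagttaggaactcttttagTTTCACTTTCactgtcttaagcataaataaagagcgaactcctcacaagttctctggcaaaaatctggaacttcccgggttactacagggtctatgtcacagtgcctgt
Gbp5, chr3:142496684-142496983, plus strand: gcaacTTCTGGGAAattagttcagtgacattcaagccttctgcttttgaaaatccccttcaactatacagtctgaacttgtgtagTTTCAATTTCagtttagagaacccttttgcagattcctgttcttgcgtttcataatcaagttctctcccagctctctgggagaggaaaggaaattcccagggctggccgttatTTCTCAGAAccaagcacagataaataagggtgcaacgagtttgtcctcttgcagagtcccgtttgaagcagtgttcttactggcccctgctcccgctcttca
Irf1, chr11:53769764-53770063, plus strand: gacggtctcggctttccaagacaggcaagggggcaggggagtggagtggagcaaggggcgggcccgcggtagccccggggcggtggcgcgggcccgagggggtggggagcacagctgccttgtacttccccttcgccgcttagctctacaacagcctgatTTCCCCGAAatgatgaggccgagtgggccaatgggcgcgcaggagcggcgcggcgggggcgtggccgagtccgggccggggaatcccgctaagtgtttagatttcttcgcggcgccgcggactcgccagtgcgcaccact
Samhd1, chr2:157135047-157135346, minus strand: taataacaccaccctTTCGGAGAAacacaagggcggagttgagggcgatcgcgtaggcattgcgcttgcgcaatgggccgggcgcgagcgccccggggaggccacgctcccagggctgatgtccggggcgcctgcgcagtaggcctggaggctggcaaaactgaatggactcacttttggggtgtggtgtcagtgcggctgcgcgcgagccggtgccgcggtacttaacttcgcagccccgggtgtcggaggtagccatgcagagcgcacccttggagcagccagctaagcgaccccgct
The capitals in Gbp2 are 1 response element beginning 59 bases before the start. Those in Gbp5 are gamma-activated sites beginning 245 and 52 bases before the start and a response element at 165 bases before it. In Irf1 the gamma-activated site begins 90 bases, and in Samhd1 235 bases, before the start.

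Checkpoint ligand genes rose in 8 of 14 cases and fell in 1. Cd274, which encodes PD-L1, the target of 1 of the 2 antibodies, lies at chr19:29367455-29388095. It was at 9.94, 12.4, 12.3 and 12.1 CPM in PBS and at 140, 99.8, 127, 144 and 114 CPM in 5-FU+ICB. The treated tumors were close to each other and all above the controls, with a log2 fold change of 3.42 (SE 0.34, adjusted p = 1.82e-05). Pdcd1lg2 (PD-L2), the other ligand of PD-1, was at 1.56, 4.62, 1.52 and 1.2 CPM in PBS. It was at 65.5, 11.2, 77.1, 52.9 and 60.7 CPM in 5-FU+ICB, lowest in tumor 2, with a log2 fold change of 4.59 (SE 0.81, adjusted p = 0.000813). Cd86, a ligand of CD28 and CTLA-4, rose as well (2.70, adjusted p = 0.00124). The 1 that fell was Tnfsf9, the ligand of 4-1BB, at -0.62 (adjusted p = 0.0387), a call lost in 4 of the 9 fits that left out 1 tumor: without treated tumors 3 (adjusted p = 0.0781) or 5 (0.0821), or PBS tumors 1 (0.0724) or 2 (0.136). It was also lost with DESeq2 size factors, at least 10 counts in every tumor, no filter, only the 2 groups compared or a replicate block (adjusted p 0.0529 to 0.146).

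Genes of both classes of antigen presentation rose. Class I molecules show peptides to CD8 T cells, and 9 of 15 genes of this list rose, with a median log2 fold change of 1.01. The peptide transporter Tap1 was at 143 to 172 CPM in PBS and at 527, 412, 570, 483 and 517 CPM in 5-FU+ICB (1.65, SE 0.22, adjusted p = 0.000116). The heavy chain H2-K1 was at 769, 797, 634 and 799 CPM in PBS and at 1899, 677, 1701, 1405 and 2213 CPM in 5-FU+ICB. Tumor 2 fell within the PBS range, and the log2 fold change was 1.07 (SE 0.33, adjusted p = 0.0139). B2m, the class I light chain, had a log2 fold change of 0.98 (adjusted p = 0.0238) that missed the threshold without treated tumor 1 (0.0542) or 5 (0.0544) or without PBS tumor 3 (0.0651) or 4 (0.0513).

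Class II molecules show peptides to CD4 T cells and are made mainly by professional antigen-presenting cells. Of 12 genes, 11 rose, with a median of 2.97. H2-Aa was at 199, 547, 262 and 188 CPM in PBS and at 3664, 186, 4507, 2081 and 5677 CPM in 5-FU+ICB (3.43, SE 0.85, adjusted p = 0.00453). The groups overlapped only through tumor 2, which was below all PBS tumors. Ciita, the class II transactivator, rose by 2.74 (SE 0.54, adjusted p = 0.00139), and Nlrc5, its class I counterpart, by 1.63 (adjusted p = 0.000722). Type I interferon-stimulated genes rose in 11 of 20 cases with a median of 0.83. The nucleic acid sensor Zbp1, at 59.1 to 77.6 CPM in PBS, was at 214, 223, 224, 221 and 208 CPM in 5-FU+ICB (1.62, SE 0.18, adjusted p = 3e-05), whereas Mx1 did not pass the test (0.33, adjusted p = 0.446).

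**Figure D2:**
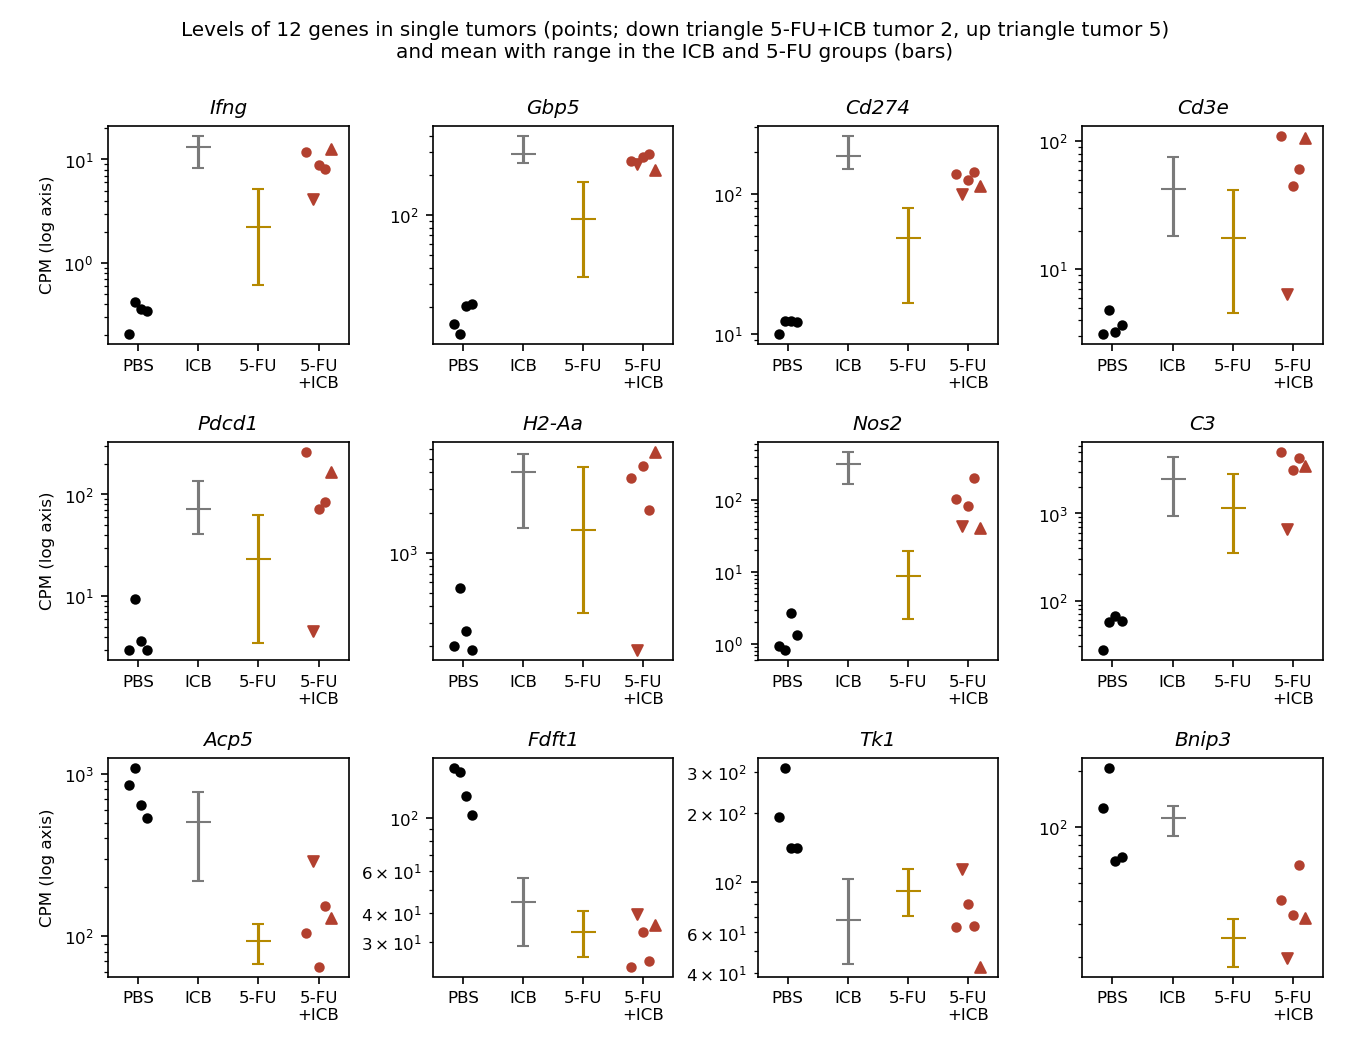
CPM of 12 genes on log axes, with each PBS tumor (black) and 5-FU+ICB tumor (red; down triangle tumor 2, up triangle tumor 5) as a point and the ICB and 5-FU groups as mean with range. Tumor 2 sits with the others for Gbp5 and Cd274 (244 and 99.8 CPM) but near the PBS tumors for Cd3e, Pdcd1 and H2-Aa (6.43, 4.54 and 186 CPM).

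T cell genes rose, with 4 of the 5 treated tumors far above the controls and tumor 2 close to them. All 18 genes of the T cell receptor complex list rose, with a median log2 fold change of 3.94, and 11 of them did not overlap with PBS. Cd3e, a signaling chain of the receptor, was at 3.12, 4.83, 3.23 and 3.69 CPM in PBS and at 110, 6.43, 45.1, 60.3 and 106 CPM in 5-FU+ICB (4.14, SE 0.74, adjusted p = 0.000889). Tumor 2 was above the controls by little. The mean log2 CPM of the list was 2.17 ± 0.29 (SD, n = 4) in PBS and 5.55 ± 1.70 (SD, n = 5) in 5-FU+ICB. All 9 naive and memory T cell genes rose. Among them Tcf7, a transcription factor of memory-type T cells, was at 13.7, 12, 17.8 and 15.1 CPM in PBS and 38.6, 20.9, 34.3, 34.8 and 144 CPM in 5-FU+ICB, and its log2 fold change of 1.90 became 1.14 without tumor 5.

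All 15 checkpoint and costimulatory receptor genes rose, with a median of 2.39, and 14 of 15 did without tumor 5. Pdcd1, which encodes PD-1, was at 3, 9.38, 3.62 and 2.96 CPM in PBS. It was at 260, 4.54, 72.6, 83.7 and 167 CPM in 5-FU+ICB, so that tumor 2 lay within the PBS range (4.63, SE 0.97, adjusted p = 0.00187). Tox, a factor of persistently stimulated T cells, rose by 4.51 (SE 0.87, adjusted p = 0.00127), and Lag3 and Tigit, further inhibitory receptors, by 3.15 and 2.23 (adjusted p = 0.00365 and 0.00400). Ctla4, the other antibody target, rose by 2.03 (SE 0.58, adjusted p = 0.00993). Icos, a receptor of activated T cells, rose by 3.66 (SE 0.67, adjusted p = 0.000957).

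Cytotoxic effector genes rose in 10 of 16 cases, with a median of 1.99. The pore-forming Prf1 was at 11.3, 11.9, 7.35 and 10.6 CPM in PBS and at 105, 34, 82.7, 69.4 and 96.9 CPM in 5-FU+ICB (2.91, SE 0.43, adjusted p = 0.000326). Granzyme B, Gzmb, was at 16.1, 25.3, 8.83 and 16.4 CPM in PBS and at 85, 61.2, 56.4, 85.1 and 84.3 CPM in 5-FU+ICB (2.16, SE 0.28, adjusted p = 0.000111). All treated tumors, tumor 2 included, were above all controls for both genes. Granzyme K, Gzmk, was at 0.231 to 0.494 CPM in PBS and at 13.6, 0.531, 4.58, 6.32 and 62.1 CPM in 5-FU+ICB, with a log2 fold change of 5.65 (SE 1.14, adjusted p = 0.00157) and of 4.17 without tumor 5. The tandem granzymes Gzmc, Gzmd, Gzme, Gzmf and Gzmg did not pass the test, at -0.32 to 1.03 on the log2 scale. On leaving out 1 tumor, Gzmc was called higher without tumor 5 (1.01, adjusted p = 0.018), and Gzmd (1.97, adjusted p = 0.0435) and Gzme (2.21, adjusted p = 0.028) were without PBS tumor 2. Of NK cell genes, 6 of 8 rose, and the NK receptor Ncr1 did not pass the test (0.57, adjusted p = 0.253).

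**Figure D3:**
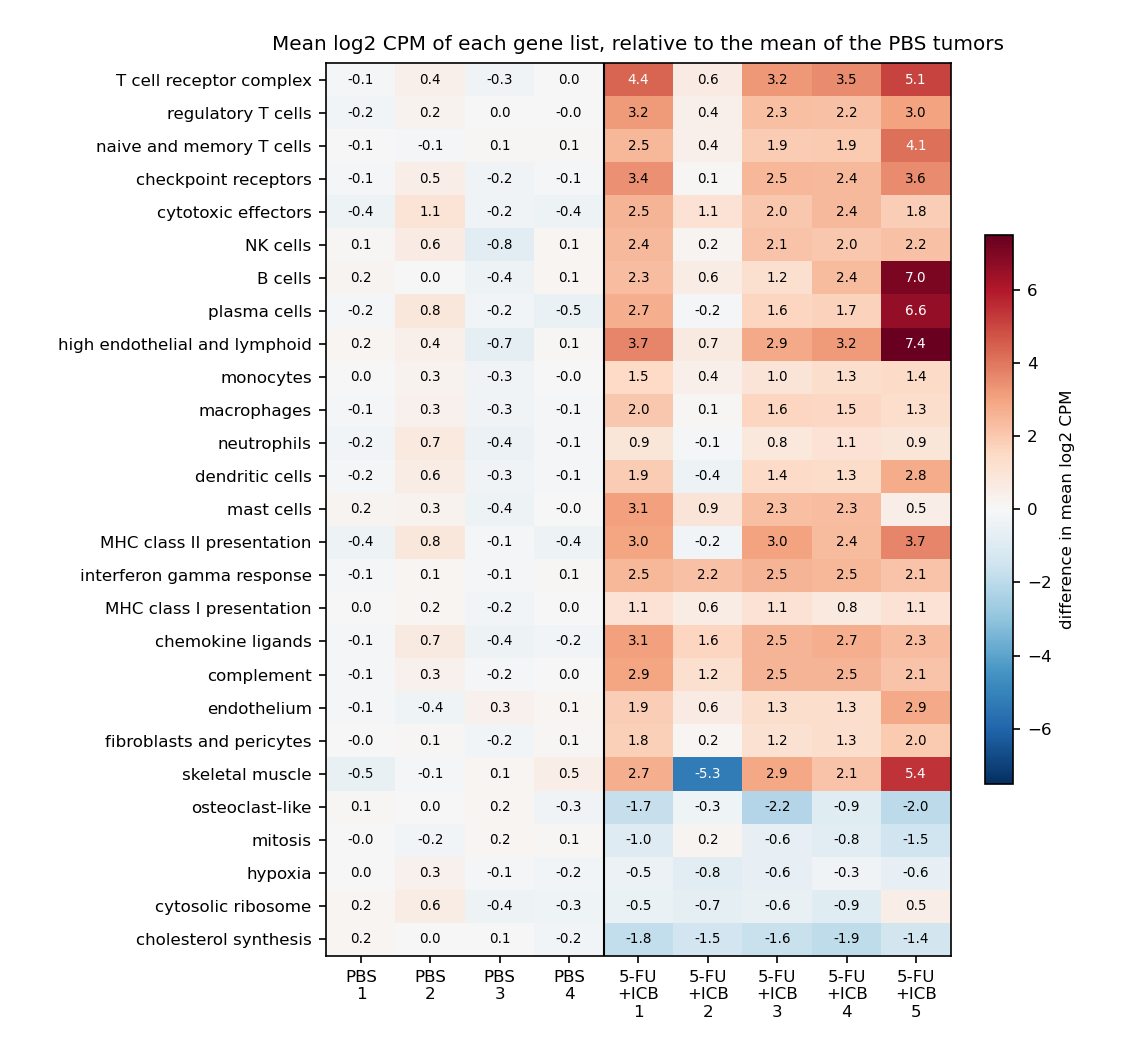
Mean log2 CPM of 27 gene lists in each of the 9 tumors, as the difference from the mean of the PBS tumors (red higher, blue lower). The interferon gamma and cholesterol rows are even across treated tumors, tumor 2 is pale in the T cell and leukocyte rows, and tumor 5 is darkest in the B cell, plasma cell, lymphoid and skeletal muscle rows.

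B cell, plasma cell and lymphoid tissue genes were far higher in tumor 5 than in the other treated tumors. Of 8 genes of high endothelial venules, the vessels through which lymphocytes enter lymphoid tissue, and of lymphoid chemokines, 8 rose (median 5.82), and 6 did without tumor 5 (median 3.2). Glycam1, a ligand of L-selectin, was at 0, 0.106, 0 and 0.158 CPM in PBS and at 2, 0.59, 1.41, 0.93 and 496 CPM in 5-FU+ICB (10.41, adjusted p = 0.00333, and 4.09, adjusted p = 0.00756, without tumor 5). Ccl19, a chemokine of the T cell zone, was at 0.063 to 0.493 CPM in PBS and at 8.15, 1.62, 2.97, 5.77 and 353 CPM in 5-FU+ICB (8.23, SE 1.80, adjusted p = 0.00233), with 4.22 (adjusted p = 0.00418) without tumor 5. Of 10 B cell genes 9 rose (median 5.01), and 7 (median 2.54) without tumor 5. Plasma cell calls went from 7 to 2 of 8 without tumor 5, and the antibody gene Ighg1, at 1175 CPM in tumor 5 and 4.19 to 73.1 CPM in the other treated tumors, went from 8.27 to 4.79 (adjusted p = 0.0299). DESeq2 gave an adjusted p for 3 of the B cell, 5 of the plasma cell and 4 of the high endothelial and lymphoid genes, of which it called 3, 4 and 4 higher. The part of adjacent lymphoid tissue in these values was not tested.

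The 10 largest rises among DEGs with a mean of at least 50 counts and no overlap were Glycam1, Pou2af1, Chst4, Ighg1, Ccl19, Fcmr, H2-M2, Dtx1, Serpina10 and Colq, and most of them belong to the same set. Pou2af1, a B cell transcriptional coactivator, went from 8.62 to 4.58, and Fcmr, the IgM Fc receptor, from 7.73 to 3.42 without tumor 5. Dtx1, a regulator of Notch signaling, went from 7.64 to 3.76. H2-M2, a nonclassical class I gene, kept 6.52 of 7.66, and Colq, the collagen tail of acetylcholinesterase, 5.97 of 7.19. Chst4, a sulfotransferase of high endothelial cells, had 1 count in all PBS tumors together, so that its fold is not given. The serpin Serpina10 (7.32, adjusted p = 0.00536) did not pass the low-count filter without treated tumor 1, 4 or 5, and it was not called with a replicate block (4.25, adjusted p = 0.0664).

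Chemokine ligand genes rose in 19 of 22 cases with a median of 2.87. Cxcl9, a ligand of CXCR3, a chemokine receptor of T cells, lies at chr5:92321347-92328079. It was at 49.4, 102, 53.8 and 49.6 CPM in PBS and at 1882, 838, 2243, 1246 and 890 CPM in 5-FU+ICB (4.48, SE 0.62, adjusted p = 0.000193). Cxcl10, a second CXCR3 ligand, rose by 2.64 (SE 0.27, adjusted p = 2.07e-05), and Cxcr3 itself by 3.94 (SE 0.87, adjusted p = 0.00254). Tumor 5 added to the level of Cxcr3, as its difference from ICB was 1.49 with all tumors and 0.67 without tumor 5. Ccl5, which recruits T cells and monocytes, was at 8.89 to 18.8 CPM in PBS and at 242, 20.1, 254, 151 and 322 CPM in 5-FU+ICB (3.95, SE 0.75, adjusted p = 0.00119). Ccl5 was nearly level with PBS in tumor 2, but Cxcl5, a neutrophil attractant, was at 58.9 CPM there, within its range of 20.1 to 72.1 CPM in treated tumors and above the 1.83 to 8.68 CPM of PBS (3.63, SE 0.63, adjusted p = 0.000762). The stromal chemokine Cxcl12 rose by 3.42 (SE 0.67, adjusted p = 0.00134).

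Genes of the TNF, IL-1 and IL-6 pathways rose in 16 of 23 cases with a median of 1.38. Tnf was at 1.89, 3.63, 1.48 and 1.67 CPM in PBS and at 27.1, 6.7, 17.6, 16.6 and 10.6 CPM in 5-FU+ICB (2.86, SE 0.51, adjusted p = 0.000916). Il1a, an alarmin of the IL-1 family, was at 0.329 to 0.811 CPM in PBS and 8.62, 2.86, 11.2, 7.47 and 23.7 CPM in 5-FU+ICB (4.19, SE 0.77, adjusted p = 0.00103). Its natural antagonist Il1rn rose by 3.14 (SE 0.49, adjusted p = 0.000431). Il1b did not pass the test at 1.39 (SE 0.62, adjusted p = 0.0738), but did without treated tumor 2 (1.65, adjusted p = 0.0242) or PBS tumor 2 (2.16, adjusted p = 0.0193), with DESeq2 (1.46, adjusted p = 0.0358) and with a replicate block (1.64, adjusted p = 0.0474). Nlrp3, the inflammasome sensor, was at -0.30 (adjusted p = 0.51). The adhesion molecule Icam1, a target of this pathway, rose by 2.76 (SE 0.43, adjusted p = 0.000465).

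Of the lists not yet described, all 8 regulatory T cell genes rose, with a median of 2.32, in each fit that left out 1 tumor. This median was below the 3.94 of the T cell receptor complex list. As a frequency of cells, another measure, the study found regulatory T cells reduced against PBS by flow cytometry and an estimate from RNA. Foxp3, the transcription factor that defines these cells, was at 2.3, 1.52, 4.55 and 4.85 CPM in PBS and at 27.5, 8.17, 25, 15.8 and 26.4 CPM in 5-FU+ICB (2.63, SE 0.49, adjusted p = 0.00108). Every treated tumor was above every control, with tumor 2 nearest to them. Chemokine receptor genes rose in 8 of 14 cases and fell in none, or in 1 without treated tumor 3, among them Ccr8 (3.59, SE 0.79, adjusted p = 0.00244). The monocyte receptor Ccr2 did not pass the test (0.60, adjusted p = 0.286), and 4 of 8 monocyte genes rose, against 21.9% of all genes. Of 3 eosinophil genes tested 2 rose, Siglecf (2.91, SE 0.70, adjusted p = 0.00395) and Il5ra (2.34, SE 0.73, adjusted p = 0.0153). Of genes that mark adjacent tissue or blood, 1 of 8 of adipocytes rose, the fat hormone Retn (3.41, adjusted p = 0.0322), and none did without tumor 5 or without any 1 of the PBS tumors. None of 5 keratinocyte and none of 5 erythroid genes was called, except 1 erythroid gene that fell without tumor 5.

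All 14 complement genes rose, with a median of 2.01, in each of the fits that left out 1 tumor. C3, the central component, was at 27, 56.5, 67.7 and 58.8 CPM in PBS and at 5046, 658, 3174, 4305 and 3524 CPM in 5-FU+ICB (5.99, SE 0.78, adjusted p = 0.000104). The lowest treated tumor, tumor 2, was still far above the highest control. C4b rose by 3.23 (SE 0.42, adjusted p = 0.000100) and the inhibitor Serping1 by 3.45 (SE 0.46, adjusted p = 0.000123).

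Genes of enzymes by which myeloid cells make nitric oxide or itaconate or consume tryptophan rose. Nos2, which makes nitric oxide from arginine, was at 0.945, 0.811, 2.67 and 1.32 CPM in PBS and at 105, 43, 81.9, 202 and 41.3 CPM in 5-FU+ICB (6.03, SE 0.71, adjusted p = 4.81e-05). Acod1, which makes itaconate, was at 1.97 to 4.25 CPM in PBS and at 99.1, 28, 88.7, 100 and 32.1 CPM in 5-FU+ICB (4.49, SE 0.66, adjusted p = 0.000297). Ido1, which degrades tryptophan, rose by 4.07 (SE 0.57, adjusted p = 0.000209). In this list of 10 genes, 8 rose, in each fit that left out 1 tumor. The 1 that fell was Gch1, which makes the cofactor of nitric oxide synthase (-0.60, SE 0.22, adjusted p = 0.0379), and it was called in 4 of those 9 fits. Its call was lost without treated tumor 1, 3 or 5 or PBS tumor 1 or 2, as with -0.49 (adjusted p = 0.0879) without tumor 5.

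Of macrophage markers 12 of 17 rose, with a median of 1.62. Cd163, a scavenger receptor of tissue macrophages, was at 3.9, 6.38, 5.53 and 6.84 CPM in PBS and at 94, 37.4, 26.1, 97.6 and 35.2 CPM in 5-FU+ICB (3.36, SE 0.67, adjusted p = 0.00147). Lyve1 and Mrc1, markers of resident-type macrophages, rose by 3.70 and 1.77 (adjusted p = 0.00332 and 0.00156). Csf1r, the receptor for macrophage colony-stimulating factor, did not pass the test at 0.87 (adjusted p = 0.0776), but did without tumor 2 (1.08, adjusted p = 0.0159). Mast cell genes rose in 7 of 8 cases (median 2.15), but in 3 without treated tumor 1 and in 4 without PBS tumor 3. Their protease Cpa3 was at 3.99 to 8.18 CPM in PBS and at 75.3, 18.7, 35.2, 45.3 and 5.81 CPM in 5-FU+ICB, with tumor 5 at the PBS level (2.43, adjusted p = 0.00983). Dendritic cell genes rose in 9 of 12 cases, and in 5 without tumor 5, while Clec9a of cross-presenting dendritic cells kept its call (2.22, and 1.99 without tumor 5). Neutrophil genes rose in 3 of 8 cases, against 21.9% of all genes. Among them S100a8 did not pass the test at 1.00 (adjusted p = 0.194), but did without PBS tumor 2 (1.98, adjusted p = 0.0224).

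Osteoclasts are multinucleated, bone-resorbing relatives of macrophages, and of 12 genes of this list 4 fell, 1 rose and 7 were not called, with a median of -1.60, against 18.7% lower over all genes. Acp5, the acid phosphatase used to stain osteoclasts, was at 856, 1078, 638 and 535 CPM in PBS and at 104, 292, 65, 154 and 129 CPM in 5-FU+ICB. Tumor 2 was highest of the treated tumors yet below all controls (-2.38, SE 0.42, adjusted p = 0.000806). Ctsk, the collagen-degrading cathepsin K, fell by 2.32 (SE 0.50, adjusted p = 0.00211), and Slc9b2, a sodium-proton exchanger of osteoclasts, by 3.11 (SE 0.72, adjusted p = 0.00315). The fourth was Atp6v0d2, a proton pump subunit (-1.84, adjusted p = 0.00053), and the gene that rose was the integrin Itgb3 (1.86, adjusted p = 0.000875), which other cells also express. Without tumor 2, 8 of the 12 were lower.

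Slc9b2 was also among the 10 largest falls, with Col10a1, Cyp2s1, Cldn9, Gm15731, Mgp, AL805899.1, Rufy4, Dnm3os and Tm7sf2. Col10a1, the collagen of hypertrophic cartilage, was at 10.1, 23.5, 27.5 and 6.81 CPM in PBS and at 0.4, 3.19, 0.442, 0.481 and 0.202 CPM in 5-FU+ICB (-4.14, SE 0.77, adjusted p = 0.00108). Mgp, an inhibitor of calcification, was at 324, 622, 333 and 228 CPM in PBS and at 39.6, 89.3, 45.4, 29 and 100 CPM in 5-FU+ICB (-2.63, SE 0.45, adjusted p = 0.000722). For both, every treated tumor was below every control, which was a condition of this ranking.

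Vascular genes rose, and few matrix genes were called. Of 12 endothelial genes 11 rose with a median of 1.65, and 9 did without tumor 5. Vwf, a clotting factor stored in endothelium, was at 1.64, 1.27, 2.27 and 4.06 CPM in PBS and at 40, 4.69, 15.1, 18.3 and 49.1 CPM in 5-FU+ICB (3.45, SE 0.71, adjusted p = 0.00173). Collagens and matrix genes rose in 3 of 21 cases and fell in 1, near a median of 0.28, below the background share in either direction, while 7 rose without PBS tumor 3 and 3 fell without treated tumor 2. Col1a1, the main fibrillar collagen, did not pass the test (0.98, SE 0.41, adjusted p = 0.0617), but did without PBS tumors 3 (1.33, adjusted p = 0.0229) or 4 (1.21, adjusted p = 0.0429), with DESeq2 (1.02, adjusted p = 0.0396) and with at least 10 counts in every tumor (1.05, adjusted p = 0.0464). Fibroblast and pericyte genes rose in 7 of 13 cases, among them the proteoglycan Dcn (2.04, SE 0.56, adjusted p = 0.00803). Skeletal muscle genes, tested as markers of adjacent tissue, were higher in 1 of 12 cases, in 5 without treated tumor 2 and in 0 without tumor 5, with a median of 3.53, and of 1.95 without tumor 5. Acta1 was at 60.8 to 87.2 CPM in PBS and at 381, 0.266, 425, 286 and 2225 CPM in 5-FU+ICB (adjusted p = 0.155). Whether adjacent muscle moves the other groups was not tested.

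Cholesterol synthesis was the 1 list of the 49 in which every gene fell. All 20 fell, with a median of -1.64, and 18 of them did not overlap between groups. The count stayed 20 of 20 in every fit that left out 1 tumor and with DESeq2. The mean log2 CPM of the list was 6.77 ± 0.16 (SD, n = 4) in PBS and 5.12 ± 0.23 (SD, n = 5) in 5-FU+ICB, with tumors 2 and 5 at 5.31 and 5.39. Cholesterol is built from acetyl-CoA through mevalonate and squalene, and its genes are switched on by the factor SREBP-2 when sterols are scarce.

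Hmgcs1 (chr13:119690379-119708260), which makes the mevalonate precursor HMG-CoA, was at 217, 184, 227 and 172 CPM in PBS and at 50.2, 53.7, 46, 51.5 and 55.1 CPM in 5-FU+ICB. The treated tumors spanned under 10 CPM (-1.96, SE 0.22, adjusted p = 3.44e-05). Fdps, which makes farnesyl pyrophosphate, was at 361, 246, 287 and 229 CPM in PBS and at 34.5, 76.3, 54.5, 37.6 and 50.3 CPM in 5-FU+ICB (-2.47, SE 0.32, adjusted p = 9.45e-05). Fdft1, squalene synthase, had the smallest p of all lower DEGs. It was at 162, 157, 124 and 103 CPM in PBS and at 23.7, 39.3, 33.1, 25.1 and 35.4 CPM in 5-FU+ICB (-2.12, SE 0.22, adjusted p = 2.23e-05). Msmo1 (-2.13, adjusted p = 3e-05) and Tm7sf2 (-2.54, adjusted p = 2.33e-05), 2 later sterol enzymes, were also among the 5 lower DEGs with the smallest p, with Agfg2 and Pspc1. Of the regulators, Insig1, which retains the SREBP complex and is itself its target, fell by 2.31 (SE 0.26, adjusted p = 3.51e-05) and Srebf2 by 0.75 (SE 0.20, adjusted p = 0.00633).

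A sterol regulatory element, written TCACNCCAC, was searched on both strands of the 16 windows of the 13 cholesterol genes with a RefSeq promoter. It was in 1 window (6.25%), that of Hmgcs1, against 1.24% of all windows. This promoter is shown with the element in capitals, beginning 137 bases before the start.
Hmgcs1, chr13:119690101-119690400, plus strand: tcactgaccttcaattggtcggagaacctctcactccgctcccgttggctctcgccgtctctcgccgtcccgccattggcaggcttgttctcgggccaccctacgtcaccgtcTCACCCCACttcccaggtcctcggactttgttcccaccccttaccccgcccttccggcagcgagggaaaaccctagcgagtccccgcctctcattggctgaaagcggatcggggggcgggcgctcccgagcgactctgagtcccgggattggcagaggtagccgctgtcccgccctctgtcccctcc
For the other genes these letters were not in the windows searched, from which nothing follows about the factor.

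**Figure D4:**
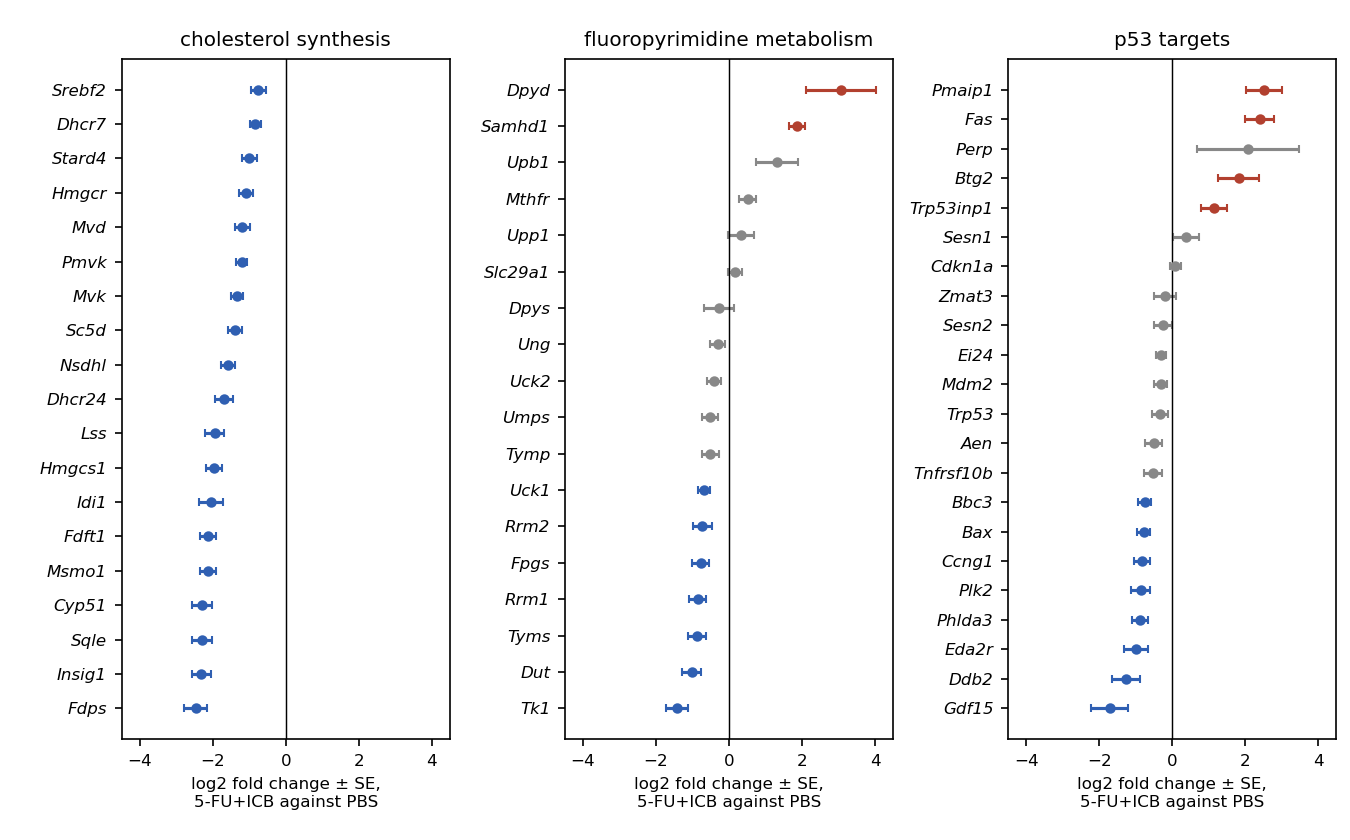
Log2 fold change with its SE of the genes shown of the cholesterol synthesis, fluoropyrimidine metabolism and p53 target lists, 5-FU+ICB against PBS (red higher, blue lower, grey not called). All 19 cholesterol genes shown lie left of 0, while the p53 target Cdkn1a sits at 0.08 and Samhd1 at 1.86.

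Genes that act on 5-FU or are its targets fell more often than they rose, 8 against 2 of 19, with a median of -0.51. Over all genes 18.7% were lower and 21.9% higher. Tyms, thymidylate synthase and the target of 5-FU, was at 91.9, 134, 65.2 and 66.6 CPM in PBS and at 41.6, 69.1, 51.4, 37.9 and 43.4 CPM in 5-FU+ICB. The groups overlapped through tumor 2 (-0.88, SE 0.24, adjusted p = 0.00835). Tk1, the salvage thymidine kinase, was at 191, 312, 140 and 140 CPM in PBS and at 63.4, 113, 79.7, 64.1 and 42.6 CPM in 5-FU+ICB (-1.43, SE 0.30, adjusted p = 0.00206). Dut, which hydrolyses dUTP, fell by 1.02 (adjusted p = 0.00506).

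The 2 genes that rose were Samhd1 and Dpyd. Samhd1, a nucleotide triphosphohydrolase that is also interferon-inducible, was at 183, 120, 257 and 249 CPM in PBS and at 711, 667, 764, 710 and 809 CPM in 5-FU+ICB (1.86, SE 0.22, adjusted p = 5.08e-05). Dpyd, which degrades 5-FU, was at 0.158 to 0.288 CPM in PBS and at 1.53, 0.118, 0.804, 1.73 and 4.24 CPM in 5-FU+ICB, with tumor 2 below all controls (3.07, SE 0.96, adjusted p = 0.0156).

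Targets of p53, the DNA damage response factor, were called in both directions, 4 rising and 8 falling of 22, against 21.9% higher and 18.7% lower over all genes. Cdkn1a, which encodes the cell cycle inhibitor p21, was at 146, 162, 118 and 128 CPM in PBS and at 153, 177, 131, 143 and 125 CPM in 5-FU+ICB (0.08, SE 0.15, adjusted p = 0.698), and Mdm2, which degrades p53, was at -0.32 (adjusted p = 0.143). The groups lay on top of each other for Cdkn1a. The death receptor Fas, also induced by inflammation, was at 2.9 to 8.61 CPM in PBS and at 27.9, 13.2, 19.5, 29.4 and 32.1 CPM in 5-FU+ICB (2.39, SE 0.39, adjusted p = 0.000602), and Pmaip1 (Noxa) rose by 2.52 (SE 0.50, adjusted p = 0.00141). The death effector Bax fell by 0.78 (SE 0.18, adjusted p = 0.00301) and the stress cytokine Gdf15 by 1.72 (SE 0.50, adjusted p = 0.0111).

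Mitosis genes fell in 10 of 20 cases and rose in none, with a median of -0.77. The count was 6 without treated tumor 1, 4 or 5 or without PBS tumor 1. Cdk1, the kinase that starts mitosis, was at 270, 345, 165 and 176 CPM in PBS and at 77.9, 151, 103, 74.4 and 62.7 CPM in 5-FU+ICB (-1.35, SE 0.30, adjusted p = 0.00271). Tumor 2 was again nearest to the controls. Ccnb1 and Ccnb2, its cyclin partners, fell by 1.08 and 1.15 (adjusted p = 0.00565 and 0.0024). Mki67, the antigen of the proliferation stain, was at 172, 102, 618 and 455 CPM in PBS and at 269, 636, 328, 368 and 121 CPM in 5-FU+ICB, without a difference beyond its spread (0.03, SE 0.48, adjusted p = 0.96). Of DNA replication genes 10 of 22 fell, such as the helicase subunit Mcm5 (-0.78, adjusted p = 0.00647) and the S-phase cyclin Ccne2 (-1.68, adjusted p = 0.00283). The 1 that rose was E2f2 (1.37, adjusted p = 0.00384).

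Hypoxia genes fell in 10 of 22 cases, with a median of -0.58 and a mean log2 CPM below all PBS tumors in all 5 treated tumors. Without PBS tumor 2, the highest control, 6 fell. Car9, a carbonic anhydrase induced by HIF-1, was at 12.8, 24.8, 11.2 and 9.58 CPM in PBS and at 3.06, 1.27, 2.93, 4.27 and 3.69 CPM in 5-FU+ICB (-2.26, SE 0.35, adjusted p = 0.000378). Bnip3, a mitophagy receptor, was at 126, 207, 65.6 and 69.2 CPM in PBS and at 40.3, 19.7, 33.7, 62.2 and 32.3 CPM in 5-FU+ICB (-1.63, SE 0.32, adjusted p = 0.00146). Pdk1, which diverts pyruvate from mitochondria, fell by 1.60 (SE 0.20, adjusted p = 7.43e-05). The 1 that rose was the prolyl hydroxylase P4ha2 (0.93, adjusted p = 0.00341). Without treated tumor 2, 3 rose, with Ndrg1 (0.63, adjusted p = 0.0263) and the glucose transporter Slc2a1 (0.54, adjusted p = 0.0333) added.

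Genes of cell death (the BCL2 family, caspases and necroptosis) rose in 9 of 21 cases and fell in 1, or in 2 without treated tumor 2 or without PBS tumor 3 or 4. Ripk3, a kinase of necroptosis, rose by 1.11 (SE 0.23, adjusted p = 0.00179), and Bcl2l11, which encodes the death promoter BIM, by 1.25 (SE 0.31, adjusted p = 0.00492).

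Glycolytic genes were divided, with 5 rising and 6 falling of 16, and 3 rising without PBS tumor 1 or 2. Over all genes 21.9% were higher and 18.7% lower. Hk2, the inducible hexokinase, was at 18.6, 11.7, 46.5 and 35.4 CPM in PBS and at 148, 87.4, 84.2, 112 and 51.7 CPM in 5-FU+ICB (1.79, SE 0.35, adjusted p = 0.00134). The triose isomerase Tpi1 was at 1408, 1744, 1025 and 1018 CPM in PBS and at 623, 700, 673, 612 and 427 CPM in 5-FU+ICB (-1.10, SE 0.18, adjusted p = 0.000578). The entry step and a lower step of the pathway thus moved in opposite directions, in treated tumors that did not overlap with the controls. Gapdh, often used as a reference gene, fell by 0.56 (SE 0.14, adjusted p = 0.00425), near the fold threshold. It was not called with at least 10 counts in every tumor (-0.49), with no filter (-0.50) or with only the 2 groups compared (-0.51, adjusted p = 0.056).

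The counts of ribosome and respiratory chain genes called lower depended on single tumors. PBS tumors 1 and 2 also stood above PBS tumors 3 and 4 in mean log2 CPM. The values were 9.12 and 9.52 against 8.57 and 8.64 (cytosolic ribosome), 7.01 and 7.34 against 6.44 and 6.52 (respiratory chain). For the mitochondrial ribosome they were 5.64 and 6.03 against 5.15 and 5.18. Cdk1, Tk1 and Tpi1 were divided likewise and Mki67 the other way. Leaving out 1 tumor does not remove this split, whose cause was not tested. Mitochondrial ribosomal protein genes fell in 55 of 78 cases (median -0.65), and in 29 without PBS tumor 2. Cytosolic ribosomal protein genes fell in 23 of 88 cases, against 18.7% of all genes, but in 74 of 88 without treated tumor 5, in 37 without PBS tumor 3 and in 6 without PBS tumor 2. Fewer also fell without treated tumor 1 or 3 (13 each) or 4 (10) or without PBS tumor 1 (12). Nuclear respiratory chain genes fell in 31 of 72 cases and rose in none, in 46 without treated tumor 5, 14 without treated tumor 4, 19 without PBS tumor 1 and 7 without PBS tumor 2. Ribosome biogenesis genes fell in 11 of 20 cases, in 7 without treated tumor 5 or PBS tumor 1, 6 without treated tumor 1 or 4 and 4 without PBS tumor 2. Npm1, a nucleolar chaperone, fell by 0.65 (SE 0.20, adjusted p = 0.0163), but was not called with no filter (-0.58, adjusted p = 0.0583) or with only the 2 groups compared (-0.60, adjusted p = 0.0612). In contrast the 5 higher DEGs with the highest CPM were all mitochondrially encoded, mt-Co1, mt-Co3, mt-Atp6, mt-Cytb and mt-Co2. mt-Co1 was at 4861, 5200, 5101 and 6274 CPM in PBS and at 15722, 5601, 14024, 10575 and 63047 CPM in 5-FU+ICB, and its log2 fold change of 2.02 (adjusted p = 0.00864) was 1.10 (adjusted p = 0.0284) without tumor 5. mt-Co2 went from 2.16 to 1.18 and kept its call, while mt-Co3, mt-Atp6 and mt-Cytb were no longer called (0.88, 0.64 and 0.71, adjusted p = 0.104, 0.112 and 0.0555). mt-Atp6 was also not called without PBS tumor 1 or 2 (adjusted p = 0.0527 and 0.0667).

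The 5 lower DEGs with the highest CPM were CT010467.1, Gm42860, Lgals1, Ppia and Gapdh. Gm42860 was not called with only the 2 groups compared (-1.48, adjusted p = 0.0699). CT010467.1 rested on PBS tumor 1 alone, at 65594 CPM there against 435 to 1836 CPM in the other controls, and went from -4.25 to -0.35 (adjusted p = 0.579) without it. Lgals1, galectin-1 of mesenchymal and tumor cells, fell by 1.29 (SE 0.29, adjusted p = 0.00286), and Ppia, the cyclosporin-binding isomerase, by 0.89 (SE 0.20, adjusted p = 0.00271).

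Of 17 unfolded protein and stress response genes 5 rose and 4 fell, against 21.9% higher and 18.7% lower over all genes. Those that rose were Hspa1a, Hspa1b, Sdf2l1, Herpud1 and Dnajc3. Herpud1 (0.77, adjusted p = 0.0438) kept its call in 3 of the 9 fits that left out 1 tumor, those without treated tumor 2, 3 or 4. Those that fell were Atf4, a transcription factor of the stress response (-0.96, adjusted p = 0.00754), and Trib3, Asns and Chac1, which are among its known targets. Trib3 was at 20, 18.9, 13.1 and 14.5 CPM in PBS and at 3.17, 9.5, 4.62, 5.32 and 3.18 CPM in 5-FU+ICB (-1.68, SE 0.41, adjusted p = 0.00398). Asns, asparagine synthetase, fell by 1.51 (adjusted p = 0.00462) and Chac1, which degrades glutathione, by 1.31 (adjusted p = 0.00764). The heat shock protein gene Hspa1a was at 0.165 to 0.698 CPM in PBS and at 27.1, 1.62, 2.05, 4.2 and 8.78 CPM in 5-FU+ICB (4.56, SE 1.01, adjusted p = 0.00256). Immediate early genes rose in 7 of 16 cases, among them Atf3 (2.44, SE 0.59, adjusted p = 0.00394) and Fosb, at 4.05 (adjusted p = 0.0117) with all tumors and 2.2 (adjusted p = 0.0657) without treated tumor 1.

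The same 5 tumors were then set against the single treatments in the same model. Against ICB alone, 0.229% of tested genes (41) were DEGs, 12 higher and 29 lower, and against 5-FU alone 0.0112% (2), both higher. Before adjustment, 1947 and 2983 genes had a p below 0.05. These counts were unstable, as leaving out 1 tumor gave 1 (without ICB tumor 4) to 83 (without treated tumor 4) against ICB. Against 5-FU most such fits gave 0 to 2, but 1948 came without treated tumor 2 and 640 without 5-FU tumor 3. DESeq2 gave 327 and 539 DEGs. A gene that missed the threshold here is therefore not shown to be alike in the groups.

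**Figure D5:**
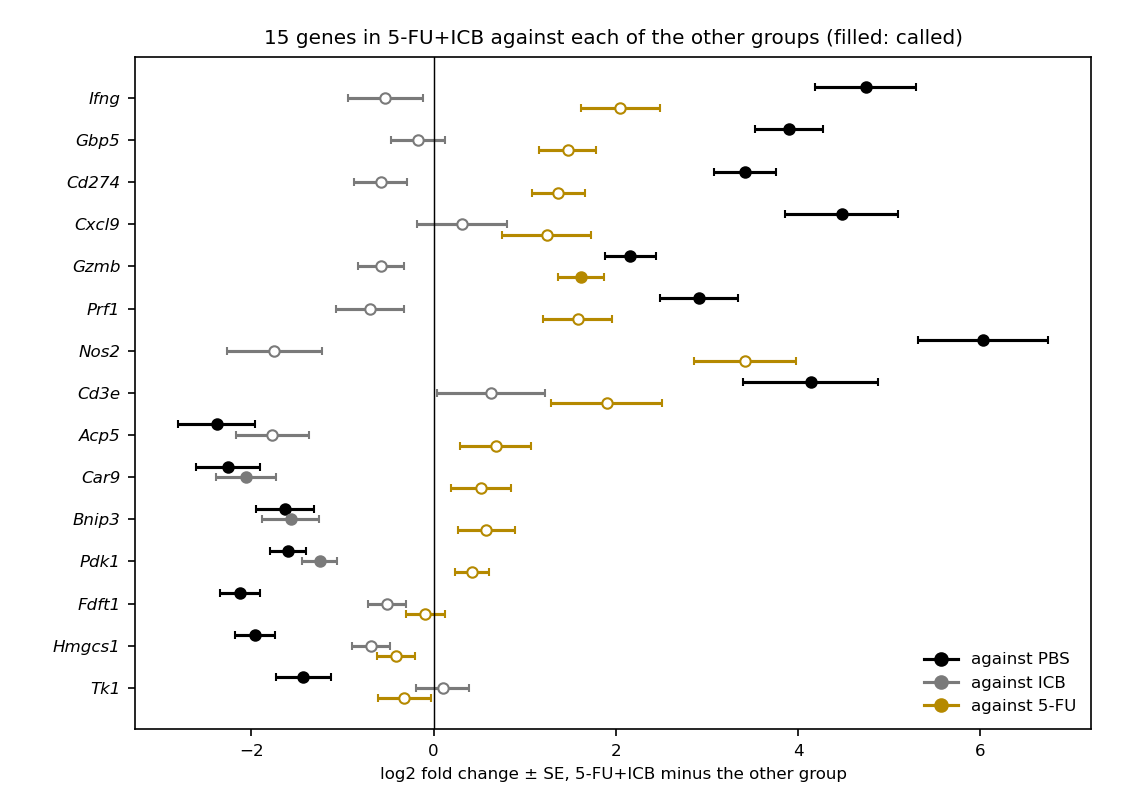
Log2 fold change with its SE of 15 genes in 5-FU+ICB against PBS (black), ICB (grey) and 5-FU (ochre), with filled points for DEGs. Cd274 and Gbp5 lie right of 0 against 5-FU (1.37 and 1.47) and left of it against ICB (-0.58 and -0.17), whereas Car9, Bnip3 and Pdk1 lie at -2.06, -1.57 and -1.25 against ICB.

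Of the 28 interferon gamma response genes none was a DEG against either single treatment, with medians of -0.10 against ICB and 0.90 against 5-FU. The mean log2 CPM of this list was 8.17 ± 0.15 (SD, n = 5) in ICB, 6.99 ± 0.62 (SD, n = 5) in 5-FU and 8.01 ± 0.18 (SD, n = 5) in the combination. The checkpoint ligand gene Cd274 had a mean between those of the single treatments. It was 187 ± 45.9 CPM (SD, n = 5) in ICB and 48.4 ± 24.6 CPM (SD, n = 5) in 5-FU, with the combination at 125 ± 18.3 CPM (SD, n = 5). The difference was -0.58 (SE 0.29, adjusted p = 0.484) from ICB and 1.37 (SE 0.29, adjusted p = 0.0902) from 5-FU, neither past the threshold. The mean log2 CPM of the hypoxia list was 5.41 in PBS, 5.52 in ICB, 4.61 in 5-FU and 4.86 in the combination. Of its 22 genes 4 were lower DEGs against ICB and 0 were DEGs against 5-FU. Bnip3 was at 112 ± 16.1 CPM (SD, n = 5) in ICB and 25.1 ± 5.85 CPM (SD, n = 5) in 5-FU, while the combination had 37.6 ± 15.6 CPM (SD, n = 5). Bnip3 was a DEG against ICB at -1.57 (SE 0.31, adjusted p = 0.0418), as were Car9 (-2.06, adjusted p = 0.0161), Pdk1 (-1.25, adjusted p = 0.0161) and, of the osteoclast list, Atp6v0d2 (-1.80, adjusted p = 0.0161), and none of them was against 5-FU. Of the 10 fits that left out 1 tumor, 2 called Bnip3 again (those without treated tumor 4 or ICB tumor 3), 7 Car9, 8 Pdk1 and 8 Atp6v0d2, and all 4 calls were lost without treated tumor 1 or ICB tumor 4. Acp5 was at 506 ± 261 CPM (SD, n = 5) in ICB and 92.8 ± 23.6 CPM (SD, n = 5) in 5-FU, with a difference of -1.77 from ICB (SE 0.40, adjusted p = 0.0718).

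Granzyme genes were called against 1 or the other single treatment. Gzmb was 1 of the 2 DEGs against 5-FU, where its mean was 24.2 ± 7.22 CPM (SD, n = 5) and that of the combination 74.4 ± 14.4 CPM (SD, n = 5) (1.62, SE 0.25, adjusted p = 0.0498). This call was lost without 5-FU tumor 1, 4 or 5 or treated tumor 1, 3, 4 or 5 (adjusted p 0.063 to 0.161), and with DESeq2 size factors, a replicate block or only the 2 groups compared (adjusted p = 0.0568, 0.12 and 0.196). The other was Cdc42ep2, a regulator of the actin skeleton (1.05, SE 0.17, adjusted p = 0.0498), called again in 2 of the 10 fits that left out 1 tumor, those without treated tumor 2 or 5-FU tumor 3. Gzmd, Gzme, Gzmf and Gzmg were lower than in ICB, and Gzmf was at 170 ± 111 CPM (SD, n = 5) in ICB and at 11, 5.87, 7.71, 13.6 and 0.404 CPM in 5-FU+ICB (-4.46, SE 0.79, adjusted p = 0.0256). These 4 were called again in 3, 2, 5 and 3 of the 10 fits that left out 1 tumor, and all 4 were lost without treated tumor 1 or 3 or without ICB tumor 2, 4 or 5. Nos2 did not pass the test against ICB, at -1.75 (SE 0.52, adjusted p = 0.177).

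Of the 12 genes higher than in ICB, Fgf23, Csf3 and Il33 are given, which were chosen after their values were seen and were also higher than in PBS. Fgf23, a phosphate-regulating hormone of bone, was at 0.132 to 0.811 CPM in PBS, at 0.203 ± 0.12 CPM (SD, n = 5) in ICB and at 4.55, 2.18, 3.58, 4.94 and 40.1 CPM in 5-FU+ICB. Its level in 5-FU alone was 5.76 ± 3.58 CPM (SD, n = 5), and its log2 fold change was 5.72 (SE 0.90, adjusted p = 0.0161) against ICB and 0.94 (SE 0.71, adjusted p = 0.492) against 5-FU. Without tumor 5 it was 4.19 (SE 0.60, adjusted p = 0.0126) against ICB, and the sign against 5-FU turned (-0.59, SE 0.52, adjusted p = 0.789). Csf3, the granulocyte growth factor, was at 0.0353 to 0.252 CPM in PBS and at 2.07, 0.62, 0.402, 2.66 and 2.88 CPM in 5-FU+ICB (3.24 against ICB, SE 0.64, adjusted p = 0.0418). The alarmin Il33 was at 18.2 to 44.1 CPM in PBS and at 166, 87.9, 78.4, 158 and 201 CPM in 5-FU+ICB (1.55 against ICB, SE 0.32, adjusted p = 0.0498). All treated tumors were above all PBS tumors for these 3 genes. Of the 10 fits against ICB that left out 1 tumor, 8 called Fgf23 again (not those without ICB tumor 4 or 5) and 2 each Csf3 and Il33 (those without treated tumor 2 or 3). Cholesterol genes were low in all 3 treated groups. Fdft1 was at 44.5 ± 13.1 CPM (SD, n = 5) in ICB and 33.3 ± 5.52 CPM (SD, n = 5) in 5-FU, and 0 of the 20 genes were DEGs against either in edgeR's test.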

How the data were processed

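Bulk RNA-seq (100-base single-end reads) of 28 AB1-HA tumors was deposited as 2 gene tables, of which the one with PBS, ICB, 5-FU and 5-FU+ICB tumors was used. The authors quantified reads with kallisto (0.46.0, after bcl2fastq 2.20.0.422, per the submitters' processing notes) on GRCm38/mm10 and summed transcripts to genes with tximport, so the deposited values are estimated counts, not normalized, of which 23.4% were not whole. They were rounded for testing.

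Genes were filtered with edgeR's filterByExpr (edgeR 4.0.16, R 4.3.3), scaled by TMM and fitted by quasi-likelihood over all 4 groups with no covariate, and p-values were adjusted by Benjamini-Hochberg over all tested genes. This departs from the DESeq2 analysis the study's methods describe, and DESeq2 1.42.0 was run as an alternative. Other alternatives were DESeq2 size factors, other count filters, no fold threshold, a replicate block, the compared groups alone and leaving out each tumor. CPM used TMM-scaled library sizes, and log2 CPM a prior count of 2. Treated tumors 2 and 5 were also left out together, a choice made after seeing the data.

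The comparison and the 49 gene lists were chosen with earlier results of these data known. Named genes were list members, the 10 largest changes in each direction (mean count at least 50, no overlap), and the 5 in each direction with the highest CPM or the smallest p. Coordinates are GENCODE M21 (GRCm38). Estimated counts of near-identical genes can be divided among copies, and whether counting used strand is not given in the sources used here.

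The procedure was tested on simulated data for this comparison (17916 genes, 200 changed), where it recovered 27.4% of changes of 1 and 71.0% of changes of 2 on the log2 scale and 5.83% of its calls were unchanged genes. Far fewer genes changed there than the 40.7% called in the data. Adjustment for multiple tests was therefore stricter in the simulation, and these rates are not those of the real comparison. A few single genes of the lists are not reported here.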

Additional observations from a re-analysis of the deposited data

Results flagged for a closer look

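Values far from the rest of their group were looked for in the PBS and 5-FU+ICB tumors (222 groups of 4 or 5 values, Dixon's 95% limit), and 32 passed, of which chance gives about 1 in 20 groups. Tumor 5 of 5-FU+ICB held 11 of them, PBS tumor 2 held 8, and PBS tumor 1 and 5-FU+ICB tumor 2 held 4 each.

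5-FU+ICB tumor 5 stood apart from the other treated tumors for lymphoid genes, with Glycam1 at 496 CPM, Ccl19 at 353, Ighg1 at 1175, Tcf7 at 144 and Gzmk at 62.1 CPM, and a mean log2 CPM of 6.73 for B cell genes. It was also apart for muscle Acta1 (2225 CPM), for mt-Co1 (63047 CPM, with 16.1% of all counts mitochondrial) and for CT010467.1 (1910 CPM, 0.148% of counts).

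In PBS tumor 2, Cxcl9 (102 CPM), Pdcd1lg2 (4.62 CPM), Pdcd1 (9.38 CPM), Cxcl5 (8.68 CPM) and Ighg1 (2.4 CPM) were above the other controls. So were the mean log2 CPM of its cytotoxic effectors (3.24), checkpoint receptors (2.68) and checkpoint ligands (3.53). In PBS tumor 1, CT010467.1 (65594 CPM, 5.95% of counts) and Dpyd (0.288 CPM) were high and Cd274 (9.94 CPM) was low.

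In 5-FU+ICB tumor 2, the mean log2 CPM of NK cell genes (2.27), neutrophil genes (0.88) and glycolysis genes (7.87) and the level of Col10a1 (3.19 CPM) lay apart from the other treated tumors. Hspa1a was high in 5-FU+ICB tumor 1 (27.1 CPM). Among controls, Gbp9 (55.1 CPM) and DNA replication genes (mean log2 CPM 6.22) stood out in PBS tumor 4, and Gbp10 (6.46 CPM) and keratinocyte genes (mean log2 CPM -2.22) in PBS tumor 3.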

How the results depend on the processing

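Of 147 named DEGs against PBS, 131 kept their direction and their call under each of the up to 16 settings that gave them a value (116 of the 147 had a value under all 16), 16 lost the call under at least 1 and 0 changed sign. The count of DEGs against PBS ranged from 5024 to 8701, and was 7923 with DESeq2 and 8048 without treated tumors 2 and 5. Lower DEGs against PBS numbered 1894 with only the 2 groups compared in the model, and 2183 (without PBS tumor 2) to 4215 (without treated tumor 2) on leaving out 1 tumor. The cause was not tested.

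The single treatments gave unstable counts. DEGs against ICB numbered 327 with DESeq2, 23 with at least 10 counts in every tumor, 17 with no filter, 0 with only the 2 groups compared, and 1 to 83 on leaving out 1 tumor. DEGs against 5-FU numbered 539 with DESeq2, 0 with DESeq2 size factors in edgeR, 1 with no filter, 0 with only the 2 groups compared, and 0 to 1948 on leaving out 1 tumor. With all 4 groups in edgeR, 1947 and 2983 genes had an unadjusted p below 0.05. With a replicate block the DEGs numbered 8 against ICB, 0 against 5-FU and 6418 against PBS. Same-numbered PBS and 5-FU+ICB tumors correlated at -0.030, -0.121, 0.0533 and 0.196 in their deviations from the group means, so the numbers were not taken to pair them.

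The genes whose sign changed were not called under any setting. Ifngr2 (-0.05) was 0.01 with DESeq2, with its size factors and with only the 2 groups compared, 0.03 with at least 10 counts, 0.06 with no filter, 0.11 without treated tumors 2 and 5, and -0.21 to 0.26 on leaving out 1 tumor. Mki67 (0.03) was -0.07 without treated tumors 2 and 5 and -0.31 to 0.50, and Cdkn1a (0.08) -0.01 to 0.15, on leaving out 1 tumor. Gzmg (-0.32) was 0.15 without treated tumors 2 and 5 and -1.50 to 1.42 on leaving out 1 tumor. On leaving out 1 tumor, the difference in total counts was -1680000 to 156000, and that in the mitochondrial share 1.89 to 5.33 percentage points. With all 9 tumors the mitochondrial share differed by 4.33 points (exact permutation p = 0.0635). Its exact permutation p on leaving out 1 tumor was 0.0286 without treated tumor 2 and 0.0571 to 0.232 in the other fits.

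Depth was similar among tumors, and genes at a few counts in PBS tumors carry the least certain folds. With 4 and 5 tumors per group, changes near 1 on the log2 scale were often missed in simulated data, in which far fewer genes changed than were called here.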
